A study of Mus musculus with 4 samples.

Results

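The 10 genes described here are 7 CXC chemokines and 3 of their receptors. They were chosen by symbol from the 31053 genes of the matrices, with earlier results of these data known. They are the T cell attractants Cxcl9, Cxcl10 and Cxcl16 with the receptors Cxcr3 and Cxcr6, the neutrophil attractants Cxcl1, Cxcl2 and Cxcl3 with the receptor Cxcr2, and Cxcl14. All 10 were found, and all 10 had UMIs (unique molecular identifiers, each standing for 1 captured RNA molecule) in both libraries. The cells were immune cells sorted from dissociated mammary tumours of FVB/NJ mice at 12 weeks of age. Jagged1/PyMT tumours carry the genotype label Jagged1 together with PyMT, and PyMT tumours, which the series also calls WT/PyMT, carry PyMT alone, so that both groups share the PyMT oncogene. The sources used here give neither the promoters that drive these genes nor the number of animals behind a sample. The labels list 2 samples of each genotype, but both are pooled in 1 matrix with 1 barcode suffix, so each genotype counts as 1 library and no value has a replicate check. Intervals are exact 95% intervals for counting error only, and no p-value is given.

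CXC chemokines are small secreted proteins that guide leukocytes along gradients through G protein-coupled receptors. Cxcl9 and Cxcl10 are made mainly under interferon and bind Cxcr3 on activated T and NK cells. Cxcl16 is made as a membrane protein, can be shed by the proteases Adam10 and Adam17, and binds Cxcr6 on memory, resident and some innate-like T cells. Cxcl1, Cxcl2 and Cxcl3 are induced through NF-kB and bind Cxcr2, the receptor that draws neutrophils into tissue. Cxcl14 is a conserved chemokine of epithelia and some macrophages whose receptor is less firmly established.

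In the mouse genome, 5 of the 7 ligands lie on chromosome 5 in 2 clusters (GRCm38, GENCODE vM21). Cxcl3 (chr5:90786103-90789600), Cxcl1 (chr5:90891241-90893115) and Cxcl2 (chr5:90903871-90905938) are on the plus strand, and Cxcl9 (chr5:92321347-92328079) and Cxcl10 (chr5:92346638-92348889) are on the minus strand. The 250 bases before the start of 4 of these genes are printed here because nearly all macrophages with Cxcl1 and all neutrophils with Cxcl3 also held Cxcl2, with Cxcl10 shown for comparison. They are from RefSeq on GRCm38.p6, 5′ to 3′ on the strand of the gene, at chr5:90890995-90891244 for Cxcl1, chr5:90903649-90903898 for Cxcl2, chr5:90785851-90786100 for Cxcl3 and chr5:92348890-92349139 for Cxcl10. Capitals mark matches on either strand to the NF-kB letters (GGG and TTTCC with any 2 bases between them), the interferon-stimulated element (TTTC at both ends of any 2 bases), the interferon-gamma element TTCNNNGAA, the AP-1 letters TGANTCA or the TATA letters TATAAA.
Cxcl1: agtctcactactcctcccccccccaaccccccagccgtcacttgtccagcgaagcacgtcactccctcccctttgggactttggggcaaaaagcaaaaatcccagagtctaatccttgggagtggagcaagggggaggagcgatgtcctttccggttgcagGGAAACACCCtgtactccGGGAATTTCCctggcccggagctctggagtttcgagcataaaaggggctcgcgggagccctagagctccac
Cxcl2: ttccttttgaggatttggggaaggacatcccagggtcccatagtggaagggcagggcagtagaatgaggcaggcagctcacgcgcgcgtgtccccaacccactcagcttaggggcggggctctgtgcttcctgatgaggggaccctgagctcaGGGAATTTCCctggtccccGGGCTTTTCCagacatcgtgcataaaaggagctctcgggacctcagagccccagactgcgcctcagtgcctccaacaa
Cxcl3: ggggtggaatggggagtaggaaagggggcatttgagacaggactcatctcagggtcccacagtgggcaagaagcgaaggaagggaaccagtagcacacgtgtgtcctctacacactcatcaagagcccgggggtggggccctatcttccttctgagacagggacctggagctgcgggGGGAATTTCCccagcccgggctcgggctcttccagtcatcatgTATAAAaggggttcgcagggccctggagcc
Cxcl10: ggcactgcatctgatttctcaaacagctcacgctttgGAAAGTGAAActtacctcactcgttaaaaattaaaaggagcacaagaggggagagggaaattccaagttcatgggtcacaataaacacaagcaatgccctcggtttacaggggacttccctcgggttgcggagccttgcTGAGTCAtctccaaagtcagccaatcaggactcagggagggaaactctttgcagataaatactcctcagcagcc

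The NF-kB letters stood 89 and 71 bases before the start of Cxcl1, 97 and 78 bases before that of Cxcl2, and 73 bases before that of Cxcl3, which also had TATAAA at 30 bases. Of 32851 mouse promoters of this length, 1.41% hold the NF-kB letters. Cxcl10 had the interferon-stimulated element at 213 bases and the AP-1 letters at 74 bases, which 2.98% and 6.75% of all promoters hold. Among the other members, Cxcl9 had TATAAA at 195 bases (12.4% of promoters), and Cxcl14 had the interferon-gamma element at 191 bases (7.02% of promoters) and the interferon-stimulated element at 172 bases. The windows of Cxcr2, Cxcr3 and Cxcr6 held no match, and Cxcl16 had no entry. A match describes letters only and shows no binding. The letters are strict, so a window without a match can hold near forms, as that of Cxcl10 does with gggaaattcc for NF-kB. Although Cxcl1, Cxcl2 and Cxcl3 are related, the last 500 bases of their transcripts, where 3′ libraries take most reads, shared no run longer than 16 bases, so their counts can be told apart.

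The Jagged1/PyMT library held 55506773 UMIs and 7875 called cells (median 4200 UMIs), and the PyMT library 36012036 UMIs and 7444 called cells (median 3841 UMIs). Jag1 itself was at 16.8 CPM (counts per 1000000 UMIs of the cells named; 15.7 to 17.9) in Jagged1/PyMT cells, against 1.96 CPM (1.52 to 2.49) in PyMT cells. A cell was placed in a class by RNA of fixed marker genes alone, so a class name stands for "macrophage-like" and so on, and no protein was measured. A barcode with markers of 2 lineages was set aside as mixed, which took 20.2% of Jagged1/PyMT and 6.61% of PyMT barcodes, and 70 barcodes were called in both libraries. In Jagged1/PyMT, 1031 of the mixed barcodes paired T or NK markers with those of macrophages, monocytes or dendritic cells, against 261 in PyMT. C1qa, a macrophage marker, was at 4535 CPM in Jagged1/PyMT and 4715 CPM in PyMT macrophages, against 24.0 and 4.93 CPM in T cells. S100a8, a neutrophil gene that the gate did not use, was at 52487 and 42208 CPM in neutrophils, against 31.2 and 0.985 CPM in macrophages.

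There were 6 classes with at least 50 cells in each library. They held 1812 Jagged1/PyMT and 176 PyMT macrophages, 140 and 54 monocytes, 71 and 63 mature dendritic cells, 186 and 79 neutrophils, 2539 and 4905 T cells, and 1228 and 1344 B cells. Macrophages differed in depth, with a median of 8021 UMIs per cell in Jagged1/PyMT and 2935 in PyMT. Depth was closer in neutrophils (2282 and 2291 UMIs), T cells (3804 and 3907) and monocytes (9453.5 and 9131.5). Mature dendritic cells had medians of 7689 UMIs in Jagged1/PyMT and 10218 in PyMT. Macrophage values are therefore also given within bands of depth and after thinning every cell to 1000 UMIs.

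Most members had a leading class. Among the 6 classes, Cxcl16 was highest in macrophages and mature dendritic cells, and Cxcl14 in macrophages. Cxcl10 and Cxcl9 were highest in macrophages in Jagged1/PyMT only, since PyMT neutrophils had 54.8 CPM of Cxcl10 (12 UMIs) against 50.2 CPM in PyMT macrophages, and PyMT monocytes had 8.52 CPM of Cxcl9 (5 UMIs) against 6.89 CPM. Cxcl2 was highest in neutrophils, Cxcr2 was nearly limited to them, and Cxcr6 was highest in T cells. Cxcr3 was low everywhere, with its highest levels in the small class of plasmacytoid dendritic cells.

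**Figure D1:**
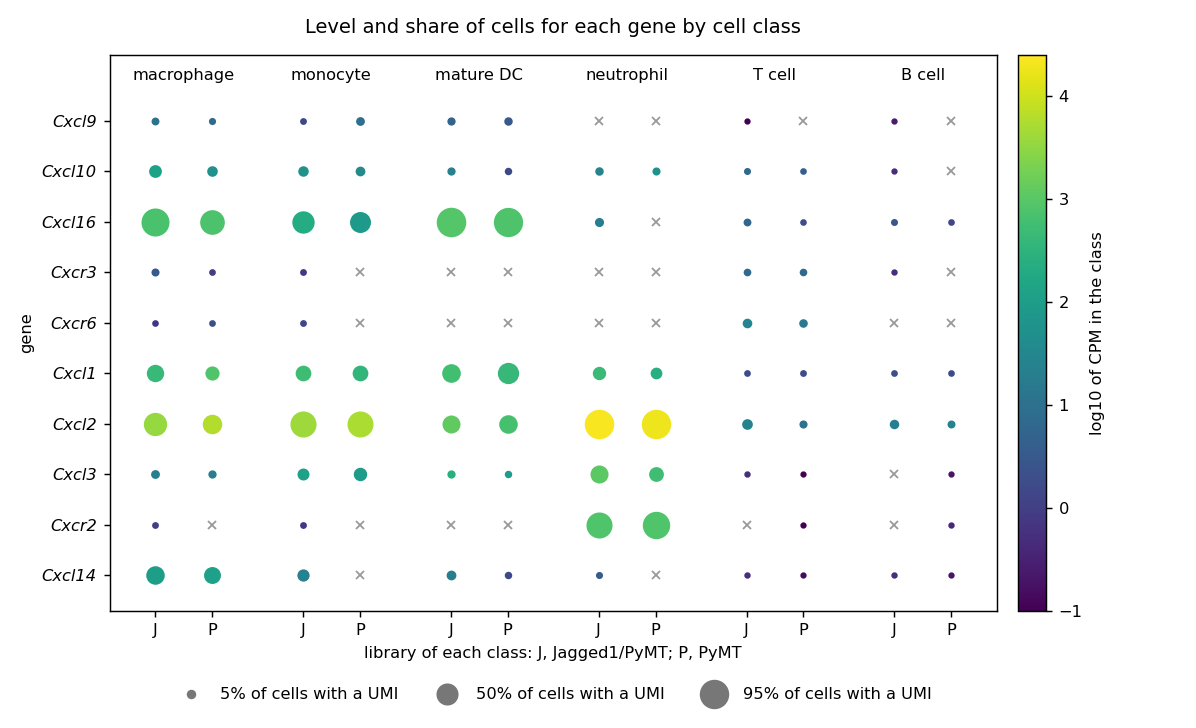
Each row is 1 gene and each pair of columns 1 cell class, with the Jagged1/PyMT library (J) left of the PyMT library (P). Colour gives the level on a log10 CPM scale, dot area the percent of cells with a UMI, and a cross 0 UMIs. Cxcl2 is the brightest gene in neutrophils, at 22361 CPM in Jagged1/PyMT and 18317 CPM in PyMT, and Cxcr2 is bright in neutrophils alone.

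Taking a difference of over 1.5-fold as the rule, among genes with at least 50 UMIs in a class, 3 of 8 members were higher in Jagged1/PyMT macrophages and 2 were lower. Of all 9649 genes measured there, 15% were higher and 9.59% lower. The median log2 ratio, Jagged1/PyMT over PyMT, was -0.05 for the 8 members and 0.07 for all genes, so the members as a list did not sit to one side. In T cells 4 of 6 members were higher and none lower, where 7.04% of 9845 genes were higher and 5.86% lower. Those 4 were Cxcr6, Cxcl10, Cxcl16 and Cxcl2. The T cell levels of Cxcl16 and Cxcl2 were 0.832% to 2.07% of their free RNA levels. Those of the macrophage gene C1qa, which the gate holds low in T cells, were 1.59% and 1.95%. C1qa was at 24.0 CPM in Jagged1/PyMT and 4.93 CPM in PyMT T cells. The part of free RNA in the Cxcl16 and Cxcl2 counts was not tested. In neutrophils 2 of 4 members were higher and none lower, where 17.5% of 1712 genes were higher and 12% lower. Monocytes had 2 of 5 members higher and none lower, where 8.96% of 4395 genes were higher and 8.4% lower. Mature dendritic cells had 2 of 4 higher and none lower, where 8.72% of 2593 genes were higher and 9.22% lower. In B cells Cxcl2 alone had 50 UMIs, at 20.4 CPM in Jagged1/PyMT and 23.3 CPM in PyMT, and it passed in neither direction (4.4% of 7883 genes higher and 6.34% lower). A single PyMT B cell held 79 of its 113 UMIs there, and without the top cell of each library the log2 ratio was 1.31.

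**Figure D2:**
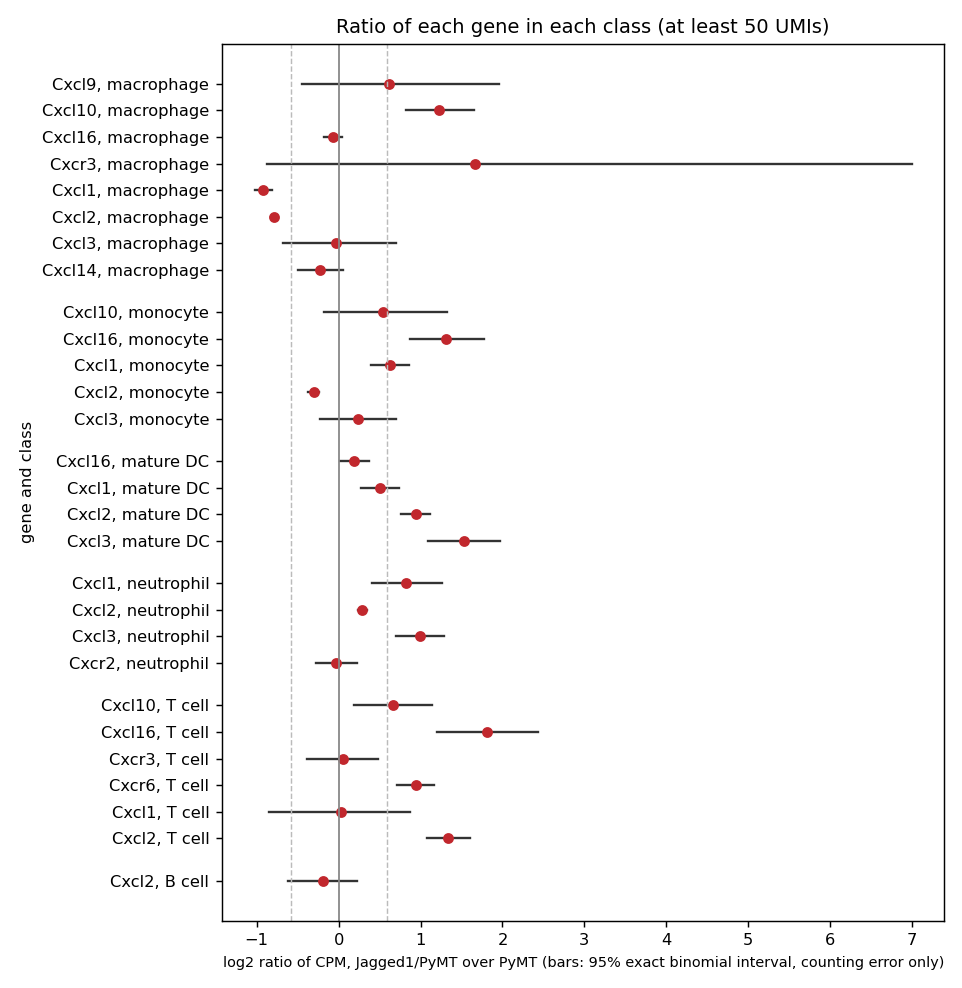
Points give the log2 ratio of CPM, Jagged1/PyMT over PyMT, for each gene and class with at least 50 UMIs, and bars its exact 95% interval (counting error only). The solid line marks no difference and the dashed lines 1.5-fold. Cxcl10 in macrophages (1.22) and Cxcr6 in T cells (0.94) lie to the right, and Cxcl1 (-0.92) and Cxcl2 (-0.79) in macrophages lie to the left.

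Among the T cell attractants, Cxcl16 was the most widely held. It was at 714 CPM (12343 UMIs) in Jagged1/PyMT macrophages, against 750 CPM (762 UMIs) in PyMT macrophages, a log2 ratio of -0.07 (-0.18 to 0.04). UMIs of Cxcl16 were found in 85.3% of Jagged1/PyMT and 64.2% of PyMT macrophages, and in 48.1% and 44.4% after thinning to 1000 UMIs. In T cells, which are not known for Cxcl16, the shares were 2.17% and 0.469%. Per macrophage RNA, the level of this membrane chemokine therefore differed by less than 1.5-fold, and the share of cells with a UMI moved with depth. Adam10 and Adam17, the proteases that shed it, had log2 ratios of 0.01 and -0.06 in macrophages.

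Cxcl16 was about as high in mature dendritic cells, the class that carries antigen to lymph nodes. There it was at 904 CPM (519 UMIs) in Jagged1/PyMT and 792 CPM (517 UMIs) in PyMT, a log2 ratio of 0.19 (0.01 to 0.37), and 95.8% and 93.7% of cells had a UMI. Monocytes held less of it and differed more, with 211 CPM (296 UMIs) in Jagged1/PyMT against 85.2 CPM (50 UMIs) in PyMT, a log2 ratio of 1.31 (0.87 to 1.77). The order of the classes, macrophages and mature dendritic cells above monocytes, was the same in both libraries. Of the macrophage genes in these monocytes, the C1q genes, which the gate holds low, were at 57.8 CPM in Jagged1/PyMT and 52.8 CPM in PyMT, and Apoe was at 2684 and 1213 CPM. Of 5 macrophage state genes, 3 were over 1.5-fold higher, where 8.96% of all genes were. The median log2 ratio of the 5 was 1.45, and their part in the Cxcl16 difference was not tested. When classes were taken from clusters in place of gates, the monocyte ratio of Cxcl16 turned to -0.069, so the monocyte difference depends on where the class is drawn.

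Cxcl10, the interferon-inducible ligand of Cxcr3, was higher in Jagged1/PyMT macrophages. It was at 117 CPM (112 to 123; 2030 UMIs) in Jagged1/PyMT, against 50.2 CPM (37.4 to 66.0; 51 UMIs) in PyMT, a ratio of 2.34-fold (1.77 to 3.15). It was carried by few cells, 233 of 1812 Jagged1/PyMT (12.9%) and 13 of 176 PyMT macrophages (7.39%), and by 4.73% and 3.52% after thinning. In T cells 0.985% and 0.469% of cells had a UMI. NK cells, too few to compare, had higher Cxcl10 levels than macrophages. They were at 270 CPM in Jagged1/PyMT (22 UMIs in 3 of 16 cells) and 86.2 CPM in PyMT (12 UMIs in 1 of 38 cells). The macrophage difference was not even over cell depth. Among macrophages with 10000 UMIs or more, 769 Jagged1/PyMT and 36 PyMT cells, Cxcl10 was at 127 and 27.4 CPM, which gave a log2 ratio of 2.22 (1.51 to 3.03). At 5000 to 10000 UMIs the log2 ratio was 0.05 (-0.52 to 0.68), and at 2000 to 5000 UMIs it was -0.60 (-1.66 to 0.67). After thinning it was 0.47, under 1.5-fold. At 5000 to 10000 UMIs the levels were 116 CPM in Jagged1/PyMT and 112 CPM in PyMT. From there to the deepest band it was mainly the PyMT level that changed, and its 27.4 CPM rests on 16 UMIs in 36 cells.

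**Figure D3:**
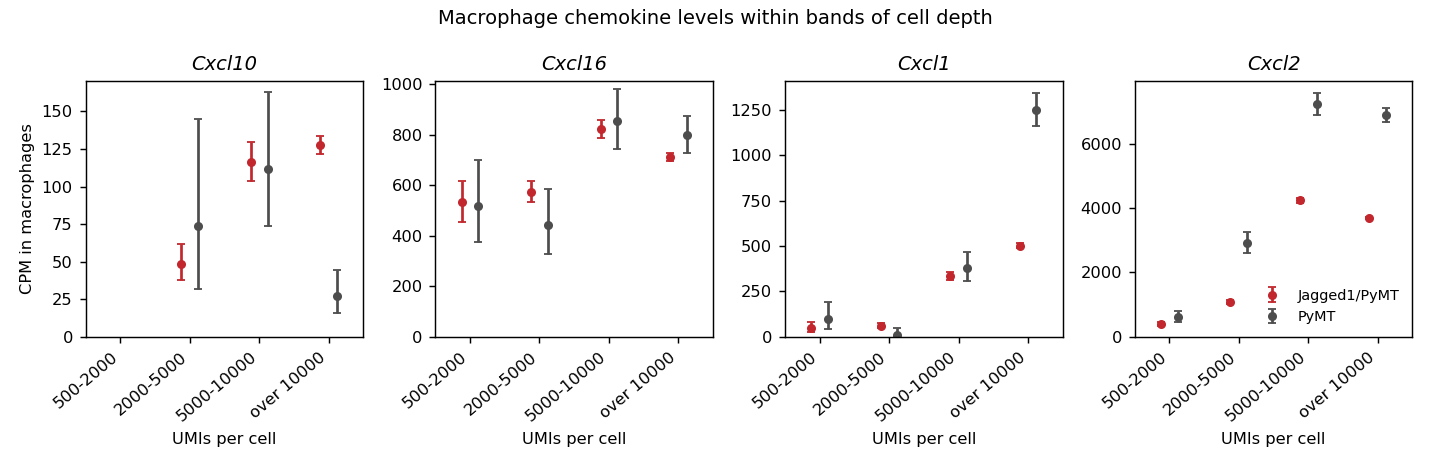
Each panel gives 1 gene's CPM in macrophages, from the shallowest to the deepest cells, with Jagged1/PyMT in red and PyMT in grey and exact 95% Poisson intervals. Bands with too few UMIs are not drawn, as for Cxcl10 at 500 to 2000 UMIs. At 10000 UMIs or more, Cxcl10 was higher in Jagged1/PyMT (127 against 27.4 CPM), while Cxcl1 was lower (502 against 1249 CPM).

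In cells thinned to 1000 UMIs, macrophages with a Cxcl10 UMI had 6.36 times the Isg15 level of other macrophages in Jagged1/PyMT and 23.2 times in PyMT. Isg15 is a ubiquitin-like interferon target. The chemokine Ccl12 stood at 6.33 and 15.7 times and the interferon regulator Irf7 at 2.88 and 34.3 times. The inflammatory cytokine Tnf stood at 3.77 and 4.57 times and the histone gene Hist1h2ap at 4.63 and 4.84 times. There were 81 such holders in Jagged1/PyMT and only 5 in PyMT, so the PyMT folds rest on few cells.

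Cxcl9, the other Cxcr3 ligand, was sparse. Jagged1/PyMT macrophages held 183 UMIs in 40 cells (10.6 CPM), and PyMT macrophages held 7 UMIs in 2 cells (6.89 CPM), a log2 ratio of 0.62 (-0.45 to 1.95). In Jagged1/PyMT, 5 cells held 55.7% of these UMIs. Averaging over cells turned the ratio to -1.47 and thinning turned it to -0.53, so no direction can be read for Cxcl9. Without the cell that held most in each library it was 1.53. Conventional dendritic cells, a class too small to compare, held no Cxcl9 UMI in 18 Jagged1/PyMT cells and 5 UMIs in 11 PyMT cells. Co-detection with Cxcl10 was likewise thin, with 3 of 16 thinned Cxcl9 holders in Jagged1/PyMT (18.8%; 4.05 to 45.6) holding Cxcl10, against 4.59% of other macrophages.

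The genes of the interferon-gamma axis upstream of Cxcl9 and Cxcl10 did not move as a block in macrophages. Of 9 listed, 8 had 50 UMIs, none was over 1.5-fold higher and 1 was lower, where 15% of all genes were higher and 9.59% lower. The median log2 ratio was 0.12 for the list and 0.07 for all genes. The lower gene was Jak2, a receptor kinase, at -0.98. The transcription factor Irf8 was at 0.31 and the receptor chain Ifngr2 at 0.29. In T cells 1 of the 9 was higher (Irf8, 0.68) and 1 lower (the receptor chain Ifngr1, -0.64), where 7.04% of all genes were higher and 5.86% lower. Ifng itself had 20 UMIs in Jagged1/PyMT and 45 in PyMT T cells.

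Cxcr6, the receptor of Cxcl16, was higher in Jagged1/PyMT T cells. It was at 29.0 CPM (25.9 to 32.4; 316 UMIs) in Jagged1/PyMT and 15.1 CPM (13.5 to 16.9; 319 UMIs) in PyMT, a ratio of 1.92-fold (1.64 to 2.25). Cells with a UMI made up 5.28% (134 of 2539) in Jagged1/PyMT and 3.36% (165 of 4905) in PyMT, and 1.56% and 0.822% after thinning. Within bands of T cell depth the log2 ratio was 0.58 at 2000 to 5000 UMIs, 1.09 at 5000 to 10000 and 0.59 at 10000 or more. T cells of Jagged1/PyMT also held more macrophage core RNA (66.4 CPM against 14.7 CPM in PyMT). Macrophages had 0.694 CPM of Cxcr6 in Jagged1/PyMT and 1.97 CPM in PyMT. B cells held no Cxcr6 UMI in either library.

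T cells were divided by UMIs of Cd8a or Cd8b1, Cd4, Foxp3 and Trdc, a gamma-delta receptor chain. The Cxcr6 difference with the most UMIs behind it stood in CD8 cells, 749 in Jagged1/PyMT and 1338 in PyMT. They had 49.0 CPM of Cxcr6 (42.3 to 56.4; 193 UMIs) in Jagged1/PyMT and 19.7 CPM (16.5 to 23.4; 135 UMIs) in PyMT, a ratio of 2.48-fold (1.98 to 3.12), at median depths of 4635 and 4657 UMIs. A UMI was found in 13.4% of Jagged1/PyMT and 7.17% of PyMT CD8 cells, and in 3.23% and 1.28% after thinning.

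Trdc cells had the highest Cxcr6 level of any subset. It was 277 CPM (62 UMIs, 12 of 38 cells) in Jagged1/PyMT and 133 CPM (42 UMIs, 13 of 60 cells) in PyMT, a log2 ratio of 1.06 (0.47 to 1.66). In Foxp3 cells, which are regulatory T cells by RNA, the order was turned, with 40.9 CPM in Jagged1/PyMT (4 of 38 cells) and 78.8 CPM in PyMT (7 of 84 cells), a log2 ratio of -0.95 (-1.96 to -0.03). The share of Foxp3 cells with a UMI was 10.5% and 8.33%, and 0% and 4.76% after thinning, so this order rests on few cells. CD4 cells without Foxp3 were low in both, at 4.13 CPM (11 UMIs) in Jagged1/PyMT and 6.54 CPM (38 UMIs) in PyMT. The order of subsets, Trdc first and CD4 last, was the same in both libraries apart from CD8 and Foxp3 cells, which changed places and whose intervals overlapped in Jagged1/PyMT (42.3 to 56.4 CPM and 21.8 to 70.0 CPM). Asking for at least 2 UMIs of the subset genes left CD8 at 1.28, Trdc at 0.99 and Foxp3 cells at -1.15.

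**Figure D4:**
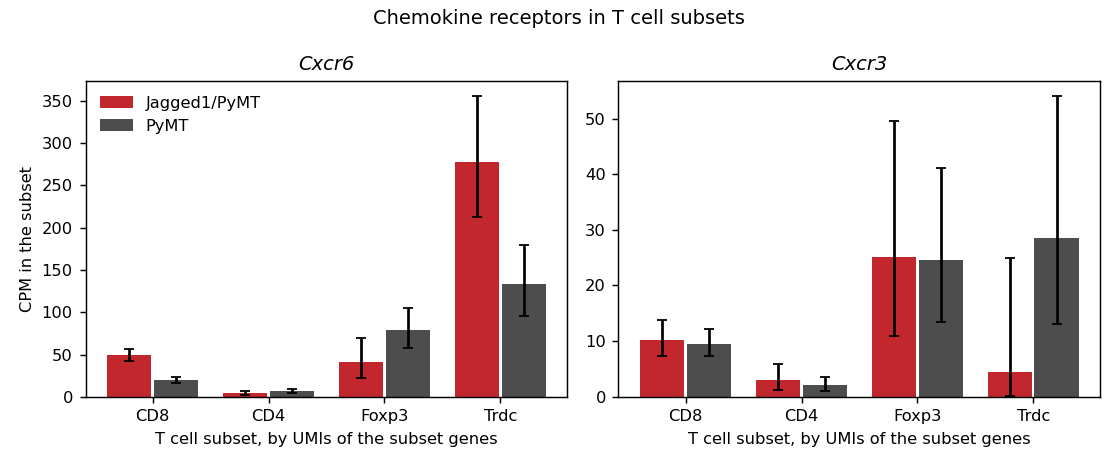
Bars give the CPM of Cxcr6 and Cxcr3 in T cell subsets, with Jagged1/PyMT (red) left of PyMT (grey) and exact 95% Poisson intervals. Cxcr6 is highest in Trdc cells (277 and 133 CPM) and differs most clearly in CD8 cells (49.0 and 19.7 CPM). Cxcr3 intervals overlap in every subset drawn, and those of Trdc cells rest on 1 UMI in Jagged1/PyMT and 9 in PyMT.

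The T cells that held Cxcr6 were also described by other genes. In thinned cells, 39 holders in Jagged1/PyMT and 40 in PyMT had S100a6, a calcium-binding protein of memory T cells, at 17.4 and 13.05 times the level of other T cells. The actin-capping gene Capg stood at 10.5 and 7.30 times and the effector chemokine Ccl5 at 9.70 and 5.22 times. Id2, a regulator of effector and innate-like lymphocytes, stood at 4.39 and 6.87 times. These 4 genes had the highest folds over both libraries.

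Cxcr3, the receptor of Cxcl9 and Cxcl10, was at a like level in T cells as a whole. T cells had 6.42 CPM (70 UMIs) in Jagged1/PyMT and 6.21 CPM (131 UMIs) in PyMT, a log2 ratio of 0.05 (-0.39 to 0.48), so a difference of 1.5-fold in either direction lies outside the counting interval. The bands of depth ran in different directions, with log2 ratios of -0.09 at 2000 to 5000 UMIs, 0.55 (-0.10 to 1.18) at 5000 to 10000 and -0.996 (-1.82 to -0.22; 20 and 49 UMIs) at 10000 or more. CD8 cells had 10.2 CPM in Jagged1/PyMT and 9.50 CPM in PyMT, and Foxp3 cells had 25.2 and 24.5 CPM from 8 and 14 UMIs. Trdc cells had 1 UMI in Jagged1/PyMT and 9 in PyMT. Without thinning, 18.8% of Jagged1/PyMT and 19.3% of PyMT T cells with Cxcr3 also held Cxcr6, against 5.02% and 3.07% of the rest. After thinning none of 6 Jagged1/PyMT and none of 12 PyMT Cxcr3 holders did.

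Cxcr3 was not limited to T cells. Plasmacytoid dendritic cells, a class too small for comparison, had 66.9 CPM (16 UMIs in 10 of 31 cells) in Jagged1/PyMT and 31.3 CPM (5 UMIs in 5 of 19 cells) in PyMT, a log2 ratio of 1.10 (-0.42 to 2.90). Macrophages had 54 UMIs in Jagged1/PyMT (3.12 CPM) and 1 in PyMT (0.985 CPM), a log2 ratio of 1.66 (-0.87 to 6.99). That ratio became -0.23 when mixed barcodes were kept and -2.01 when clusters replaced gates. Core T cell genes were at 62.3 and 71.9 CPM in these macrophages, and their part in the Cxcr3 UMIs was not tested.

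The chemokine counts in T cells were set against free RNA, the RNA in barcodes under 100 UMIs. Cxcl16 in T cells was at 5.97 CPM in Jagged1/PyMT and 1.71 CPM in PyMT, which is 2.07% and 2.05% of its free RNA level. Cxcl2 in T cells was at 25.6 and 10.1 CPM, or 1.47% and 0.832% of its free RNA level, and C1qa stood at 1.59% and 1.95% of its own. C1qa is a macrophage gene that the gate holds low in T cells. Apoe, a macrophage gene that the gate did not use, stood at 2.45% in Jagged1/PyMT and 3.13% in PyMT. The free RNA log2 ratio of Cxcl16 was 1.79, beside 1.81 in T cells, and that of Cxcl2 was 0.51, beside 1.34 in T cells. The part of free RNA in these T cell counts was not tested. Spp1, another macrophage gene, was at 104 CPM in Jagged1/PyMT and 34.0 CPM in PyMT T cells. Cxcr6 and Cxcr3 were far above, at 1986% and 1711% for Cxcr6 and at 330% and 351% for Cxcr3. Cxcl10 stood between, at 6.24 CPM in Jagged1/PyMT and 3.94 CPM in PyMT, from 25 and 23 cells. It reached 7.54% of free RNA in Jagged1/PyMT and 89.0% in PyMT, where free RNA held only 5 Cxcl10 UMIs. In CD8 cells it was found in 7 Jagged1/PyMT cells (32 UMIs) and 1 PyMT cell (1 UMI). Foxp3 cells were at 40.9 CPM (13 UMIs) in Jagged1/PyMT and 50.8 CPM (29 UMIs) in PyMT. CD4 cells had 3 UMIs in Jagged1/PyMT and 8 in PyMT. Trdc cells had none in Jagged1/PyMT and 21 UMIs in PyMT, all in 1 cell. T cells placed in no subset were at 5.33 CPM in Jagged1/PyMT and 3.18 CPM in PyMT.

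Cxcl2, the most abundant member, is a neutrophil attractant made by macrophages and by neutrophils themselves. Neutrophils had 22361 CPM (12168 UMIs) in Jagged1/PyMT and 18317 CPM (4009 UMIs) in PyMT, a log2 ratio of 0.29 (0.24 to 0.34), and 95.7% and 94.9% of cells had a UMI. Macrophages had 3509 CPM (60679 UMIs) in Jagged1/PyMT and 6051 CPM (6144 UMIs) in PyMT, a log2 ratio of -0.79 (-0.82 to -0.75). T cells had a UMI in 7.56% and 2.59% of cells, far below both classes. The macrophage level was thus lower in Jagged1/PyMT, while more of its macrophages held the gene.

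Cxcl2 was found in 56.4% of Jagged1/PyMT and 37.5% of PyMT macrophages, and in 49.2% and 38.7% after thinning. A holding cell had on average 59.4 UMIs in Jagged1/PyMT and 93.1 UMIs in PyMT. The lower level stood in every depth band, with log2 ratios of -0.62 (-1.10 to -0.12), -1.45 (-1.62 to -1.27), -0.77 (-0.85 to -0.70) and -0.90 (-0.95 to -0.85) from shallow to deep. It was -0.49 after thinning and -0.33 when each cell counted equally, both under 1.5-fold, so the size depends on how cells are weighted.

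Cxcl1 followed the same direction in macrophages, with a less even base. It was at 433 CPM (7480 UMIs) in Jagged1/PyMT, against 818 CPM (831 UMIs) in PyMT, 1.89-fold lower (1.76 to 2.03). In PyMT, 5 macrophages held 53.2% of the Cxcl1 UMIs, against 5.53% in Jagged1/PyMT. Without the cell that held most in each library the log2 ratio was -0.73, and with each cell counted equally it was -0.25. By depth it was -1.31 (-1.43 to -1.20) at 10000 UMIs or more and -0.20 (-0.51 to 0.13) at 5000 to 10000, while at 2000 to 5000 it was 2.76, from 86 UMIs in Jagged1/PyMT and 1 in PyMT. At 500 to 2000 UMIs it was -1.01 (-2.32 to 0.42; 16 and 8 UMIs). The share of macrophages with a UMI was 14.99% in Jagged1/PyMT and 14.1% in PyMT after thinning (28.5% and 17.0% before), against 0.591% and 0.734% of T cells before thinning. Of the 4 bands, the deepest was thus the one whose interval lay wholly below 0. Cxcl3 was sparse in macrophages, at 19.3 CPM (334 UMIs) in Jagged1/PyMT and 19.7 CPM (20 UMIs) in PyMT, a log2 ratio of -0.03 (-0.68 to 0.70).

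In neutrophils Cxcl1 and Cxcl3 were higher in Jagged1/PyMT. Cxcl3 was at 1081 CPM (995 to 1172; 588 UMIs) in Jagged1/PyMT neutrophils, against 544 CPM (450 to 651; 119 UMIs) in PyMT, a ratio of 1.99-fold. It was found in 31.2% of Jagged1/PyMT and 19.0% of PyMT neutrophils, and in 24.4% and 15.6% after thinning. Within bands of depth the log2 ratio was 1.12 (0.40 to 1.90) in cells of 500 to 2000 UMIs and 1.02 (0.69 to 1.36) in cells of 2000 to 5000. The Cxcl3 difference was present at both depths, but it was 0.38 when mixed barcodes were kept and 0.22 when clusters replaced gates.

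Cxcl1 was at 461 CPM (251 UMIs, 27 cells) in Jagged1/PyMT neutrophils and 260 CPM (57 UMIs, 8 cells) in PyMT, a log2 ratio of 0.82 (0.40 to 1.27). The top 5 cells held 66.5% and 94.7% of these UMIs. Clusters in place of gates gave 0.27 for Cxcl1 and mixed barcodes kept gave 0.19, so these 2 settings, which bring in further barcodes, lowered both genes below 1.5-fold. Macrophage core genes in neutrophils were at 171 CPM in Jagged1/PyMT and 36.6 CPM in PyMT, and their part in the difference was not tested.

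Cxcr2, the receptor that these chemokines share, was at 814 CPM (740 to 894; 443 UMIs) in Jagged1/PyMT neutrophils, against 832 CPM (715 to 962; 182 UMIs) in PyMT, a log2 ratio of -0.03 (-0.28 to 0.23). It was found in 72.6% of Jagged1/PyMT and 81.0% of PyMT neutrophils, and in 50% and 53.2% after thinning, against none of 2539 and 2 of 4905 T cells. The receptor level in neutrophils therefore differed by less than 1.5-fold. Macrophages held 17 Cxcr2 UMIs in Jagged1/PyMT and none in PyMT. Of all Cxcr2 UMIs in called cells, 38.6% in Jagged1/PyMT and 70.5% in PyMT lay in gated neutrophils, and 59.1% and 26.7% in mixed barcodes, of which 234 and 30 paired neutrophil with macrophage, monocyte or dendritic markers.

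**Figure D5:**
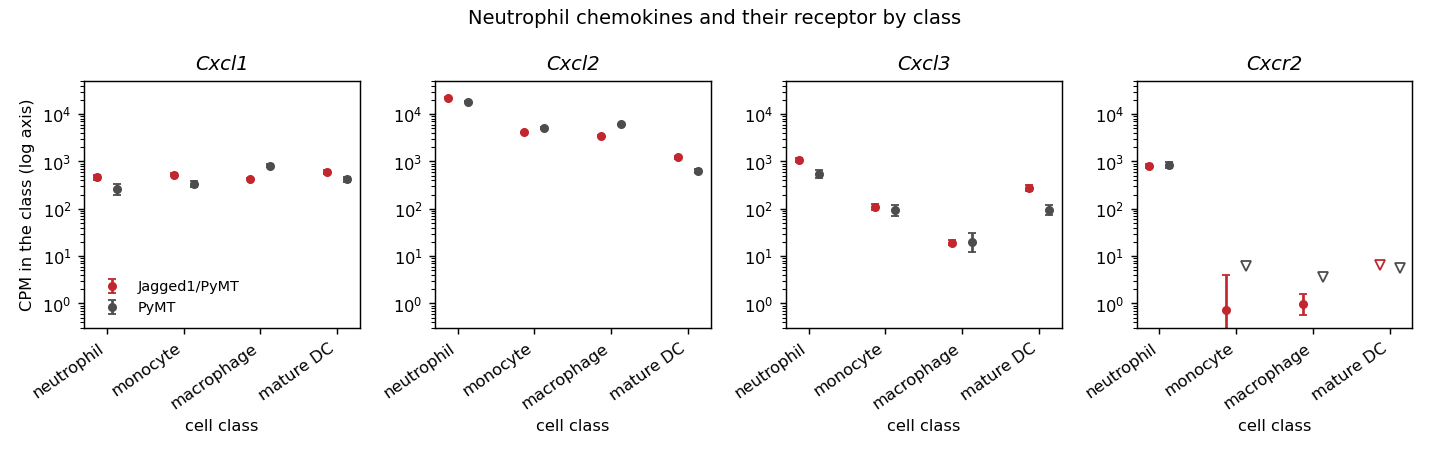
Points give the CPM of Cxcl1, Cxcl2, Cxcl3 and Cxcr2 on a log axis in 4 classes, with Jagged1/PyMT (red) left of PyMT (grey), exact 95% Poisson intervals, and open triangles at the upper limit where there were 0 UMIs. In neutrophils Cxcl3 stands at 1081 and 544 CPM and Cxcr2 at 814 and 832 CPM. In macrophages Cxcl1 (433 and 818 CPM) and Cxcl2 (3509 and 6051 CPM) are lower in Jagged1/PyMT.

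Monocytes and mature dendritic cells numbered fewer than macrophages, but their levels were not all lower. In Jagged1/PyMT, Cxcl1 was at 524 CPM in monocytes and 594 CPM in mature dendritic cells, against 433 CPM in macrophages. In PyMT it was at 341 and 418 CPM, against 818 CPM. Cxcl3 was above its macrophage level (19.3 and 19.7 CPM) in both classes and both libraries. In monocytes Cxcl2 was at 4112 CPM in Jagged1/PyMT and 5078 CPM in PyMT, a log2 ratio of -0.30 (-0.37 to -0.24). Cxcl1 was at 524 and 341 CPM, which gave a log2 ratio of 0.62 (0.39 to 0.85), with 48.6% and 86% of its UMIs in 5 cells. Cluster classes turned that ratio to -0.64. Cxcl3 was at 110 CPM in Jagged1/PyMT and 93.7 CPM in PyMT, and Cxcl10 at 52.1 and 35.8 CPM with a log2 ratio of 0.54 (-0.17 to 1.32). Apart from Cxcl1 and Cxcl16, no member with at least 50 UMIs passed 1.5-fold in monocytes. Without the cell that held most in each library, the Cxcl3 ratio was 1.12 in place of 0.23.

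In mature dendritic cells Cxcl2 was at 1233 CPM in Jagged1/PyMT and 642 CPM in PyMT, a log2 ratio of 0.94 (0.77 to 1.12). Cxcl3 was at 273 and 94.96 CPM, which gave a log2 ratio of 1.53 (1.09 to 1.97), but it came from 2 cells in Jagged1/PyMT and 1 in PyMT. Both rest on few cells, since 5 cells held 89.97% and 89.5% of the Cxcl2 UMIs, and a gate of 6 UMIs turned Cxcl3 to -0.99. Cxcl1 was more evenly held, at 594 CPM in Jagged1/PyMT (33.8% of cells) and 418 CPM in PyMT (46.0%), a log2 ratio of 0.51 (0.27 to 0.74). After thinning, 23.2% of Jagged1/PyMT and 21.0% of PyMT cells had a Cxcl1 UMI. Macrophage core genes in mature dendritic cells were at 996 CPM in Jagged1/PyMT and 76.6 CPM in PyMT, and their part in these ratios was not tested. Among classes too small to compare, 48 Jagged1/PyMT epithelial cells had 38.0 CPM of Cxcl1 (16 UMIs) and 4.76 CPM of Cxcl2 (2 UMIs), against 176 CPM (173 UMIs) and 209 CPM (206 UMIs) in 98 PyMT epithelial cells.

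Cxcl1 and Cxcl2 were found in the same macrophages. After thinning, 245 of 257 Cxcl1 holders in Jagged1/PyMT also held Cxcl2 (95.3%; 92.0 to 97.6), against 41.1% of other macrophages. In PyMT all 20 holders did (100%; 83.2 to 100), against 28.7% of the rest. Of the Cxcl10 holders, 63 of 81 in Jagged1/PyMT held Cxcl2 (77.8%; 67.2 to 86.3) against 47.8% of the rest, and 4 of 5 did in PyMT. In mature dendritic cells 4 of 16 Cxcl1 holders in Jagged1/PyMT and 5 of 13 in PyMT held Cxcl2. The holders of Cxcl1 also had more Rcan1, an inhibitor of calcineurin (3.52 times the level of other macrophages in Jagged1/PyMT and 5.16 times in PyMT). The NF-kB feedback gene Tnip3 stood at 3.05 and 8.13 times, and the cytokine Il1a at 2.56 and 6.44 times. In neutrophils the thinned cells with Cxcl3 were all Cxcl2 cells, 43 in Jagged1/PyMT and 12 in PyMT, where 95.5% and 94.8% of all thinned neutrophils held Cxcl2.

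Of 13 NF-kB and cytokine genes listed as upstream of Cxcl1 to Cxcl3, 10 had 50 UMIs in macrophages. None was over 1.5-fold higher in Jagged1/PyMT and 4 were lower, where 15% of all genes were higher and 9.59% lower, with a median log2 ratio of -0.26 against 0.07 for all genes. They were Nfkb1, an NF-kB subunit (-1.46; 64.4 CPM in Jagged1/PyMT and 177 CPM in PyMT), the cytokines Tnf (-0.83) and Il1a (-0.76), and the subunit Rela (-0.64). In neutrophils 2 of 10 were lower and none higher, namely Nfkb1 (-0.90) and the inhibitor Tnfaip3 (-0.74), beside the higher Cxcl1 and Cxcl3. Monocytes had 3 of 10 higher and 1 lower, with Tnf at 1.71, Il1a at 1.41, Il1b at 0.61 and Nfkb1 at -0.89. Mature dendritic cells had 3 of 8 higher and none lower, with Tnf at 1.25, Il1b at 0.90 and the NF-kB cofactor Nfkbiz at 0.85. In T cells 4 of 11 were higher and none lower, and 1 of them, the type 17 cytokine Il17a, had 242 UMIs in 13 Jagged1/PyMT cells and 5 UMIs in 3 PyMT cells. The others were Il1b (1.73), Nfkbiz (1.24) and Il1a (1.19), and the part of the macrophage RNA found in these T cells was not tested. Of all genes, 17.5% were higher and 12% lower in neutrophils, and 8.96% and 8.4% in monocytes. In mature dendritic cells 8.72% were higher and 9.22% lower, and in T cells 7.04% and 5.86%.

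Of 11 genes listed for their response to tissue dissociation, 4 were over 1.5-fold higher in Jagged1/PyMT macrophages and none lower. Of all genes there, 15% were higher and 9.59% lower. The median log2 ratio was 0.53 for the list and 0.07 for all genes. The higher genes were the immediate early factors Fos (0.91), Atf3 (0.86) and Jun (0.77) and the phosphatase Dusp1 (0.88). In neutrophils 2 of 9 were higher, near the 17.5% of all genes. They were Jun at 1.61 and the chaperone gene Hspa1a from 60 UMIs in Jagged1/PyMT and 1 in PyMT. Of the same 11 genes, 7 were higher in B cells (median 0.72), 4 in T cells and 4 in mature dendritic cells, with none lower, and in monocytes 2 were higher and 2 lower. Of all genes, 4.4% were higher in B cells, 7.04% in T cells and 8.72% in mature dendritic cells. In monocytes 8.96% were higher and 8.4% lower. The part of dissociation in the chemokine differences was not tested.

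Cxcl14 was a macrophage gene at a like level in both genotypes. It was at 96.6 CPM (1671 UMIs) in Jagged1/PyMT and 113 CPM (115 UMIs) in PyMT macrophages, a log2 ratio of -0.23 (-0.50 to 0.06). It was found in 33.2% of Jagged1/PyMT and 26.7% of PyMT macrophages, and in 8.23% and 9.86% after thinning, against 0.197% and 0.0612% of T cells. After thinning, 48.9% of Cxcl14 holders in Jagged1/PyMT and 57.1% in PyMT also held Spp1, the osteopontin gene of lipid-handling tumour macrophages, against 30.5% and 24.2% of the rest. The thinned shares were 33.9% in Jagged1/PyMT and 40% in PyMT for Cxcl1 holders, and 29.6% and 20% (1 of 5 cells) for Cxcl10 holders. Without thinning the holders were alike in Jagged1/PyMT. Spp1 was then held by 74.8% of Cxcl14, 74.5% of Cxcl1 and 73.0% of Cxcl10 holders. In thinned Cxcl14 holders Lpl, which encodes lipoprotein lipase, stood at 2.61 and 6.53 times the level of other macrophages, and the matrix gene Fn1 at 2.36 and 3.66 times. Cxcl2 was held by 47.5% of the Cxcl14 holders and 49.4% of the rest in Jagged1/PyMT after thinning, and by 66.3% and 51.5% without it. Of the 7 macrophage state genes listed, 6 had 50 UMIs, 1 was higher (the arginase gene Arg1, 0.90) and none lower. Of all genes in macrophages, 15% were higher and 9.59% lower. Spp1 was at 0.06, the lectin receptor gene Mrc1 at -0.39 and the folate receptor gene Folr2 at -0.40. Monocytes held 35 Cxcl14 UMIs in Jagged1/PyMT and none in PyMT.

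Of 10 other CXC and related ligands listed, 3 had 50 UMIs in macrophages, of which 1 was higher and 1 lower (15% of all genes higher and 9.59% lower). The higher one was Xcl1 (100 UMIs in Jagged1/PyMT and 2 in PyMT), and the platelet factor gene Pf4 had a log2 ratio of -0.34. Cxcl13, a B cell attractant, had 8 UMIs in 5 Jagged1/PyMT macrophages and 73 UMIs in 1 PyMT macrophage, so its ratio rests on 1 cell. Of 8 other receptors, 2 had 50 UMIs in macrophages, of which 1 was lower and none higher. It was Cxcr4, the receptor of Cxcl12, with a log2 ratio of -0.81 in macrophages and 0.00 in T cells. In T cells Xcl1, a ligand for cross-presenting dendritic cells, was at 129 CPM in Jagged1/PyMT (108 cells) and 41.7 CPM in PyMT (106 cells), a log2 ratio of 1.63. The fractalkine receptor Cx3cr1 was at 1.90 and the follicular receptor Cxcr5 at 0.78 in T cells, beside 0.94 for Cxcr6. Cx3cr1 was held by 46 Jagged1/PyMT and 20 PyMT T cells, against 1337 and 95 macrophages. The part of macrophage RNA in its T cell counts was not tested.

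Over the 12 combinations of class and library, the genes whose levels ran closest to each member were found by Pearson r of log2(CPM + 1) among 11546 genes, as a description of points that share 2 libraries. Cxcl16 ran with Pdgfa (0.992), Cxcl10 with Sgk1 (0.945), Cxcl9 with Car9 (0.965) and Cxcl14 with Tmem119 (0.980). Cxcr6 ran with the T cell receptor segment Trbv2 (0.987) and the checkpoint receptor Tigit, and Cxcr3 with Aldh5a1 (0.971). Cxcr2 ran with the neutrophil genes Steap4 (0.997) and Retnlg, the second of which defined the gate. Cxcl2 ran with Tyrobp (0.994), a myeloid signalling adaptor, Cxcl1 with Csf2rb2 (0.985), and Cxcl3 with the NF-kB inhibitor Nfkbia (0.982).

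Summed over all called cells, where classes differ in size between the libraries, ratios differed from those within a class. Cxcl16 was at 357 CPM in Jagged1/PyMT and 63.4 CPM in PyMT, a log2 ratio of 2.50, although it was -0.07 within macrophages. Cxcl2 was at 2384 and 697 CPM, which gave a log2 ratio of 1.77, although it was -0.79 within macrophages. Cxcr6, higher within T cells, was lower over all cells, at 8.85 CPM in Jagged1/PyMT and 11.4 CPM in PyMT. Macrophages held 65.4% of all Cxcl16 UMIs in Jagged1/PyMT and 35.2% in PyMT, and 57.3% and 17.8% of all Cxcl10 UMIs. Of the Cxcl3 UMIs, mixed barcodes held 50.3% in Jagged1/PyMT and 35.4% in PyMT.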

How the data were processed

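Tumour immune cells were profiled with 10x Genomics 3′ chemistry. Each deposited matrix gives unnormalised UMI counts for 737280 barcodes, without a cell filter. The authors made them with Cell Ranger 3.0.2, per the submitters' processing notes. The genome build is not given in the sources used here. Of 31053 feature identifiers, 30934 were found in GENCODE vM21 (GRCm38), used for positions only.

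Called cells had 500 or more UMIs, 250 or more genes and no more than 10% mitochondrial UMIs. They held 95.1% of Jagged1/PyMT and 94.97% of PyMT UMIs. Barcodes under 100 UMIs gave free RNA (3.70% and 3.14% of UMIs). A class needed at least 3 UMIs from at least 2 core marker genes. Barcodes that passed for 2 lineages, the second with at least 5 core UMIs per 10000, were left out as mixed, which is also how doublets were treated, since the automatic threshold of Scrublet (scanpy 1.11.5) marked 0 and 3 barcodes and was taken to have failed. The lineage minimum was set after marker levels and before member levels were seen. UMIs were summed per class and library and divided by the class total (CPM). CPM have exact Poisson, shares exact Clopper-Pearson and ratios exact conditional binomial 95% intervals (scipy 1.17.1), which cover counting error only. With 1 library per genotype nothing was tested. A ratio over 1.5-fold, among genes with at least 50 UMIs, was counted as a difference. Shares were repeated in cells thinned to 1000 UMIs. The scripts were tested on simulated counts.

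Named were all members in the classes that had 50 or more cells in each library, up to 4 genes per list and class by the size of the log2 ratio, and the 3 genes closest to a member by Pearson r. The lists were other CXC and related ligands, other receptors, the interferon-gamma axis, the NF-kB and cytokine axis, the Cxcl16 proteases, macrophage state genes and dissociation genes. Cells with UMIs of a member were further described, in thinned cells, by examples from the 8 genes with the highest folds over other cells of the class (at least 30 UMIs), picked after their values were seen. For 1 gene of the lists no value is reported here. Members and lists were chosen with earlier results of these data known. Alternatives were other cell filters, gates and scalings (median ratio, and TMM from edgeR 4.0.16), clusters, Scrublet's top share removed, thinning and a mean over cells.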

Additional observations from a re-analysis of the deposited data

Results flagged for a closer look

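In 3 cases the difference between genotypes ran in opposite directions in 2 kinds of cell, with intervals that did not overlap, and in each the difference itself was not tested because each genotype is 1 library. The log2 ratio of Cxcl1, Jagged1/PyMT over PyMT, was 0.82 in neutrophils and -0.92 in macrophages, a gap of 1.74. That of Cxcl2 was 1.34 in T cells and -0.79 in macrophages, a gap of 2.12. The T cell level of Cxcl2 was 1.47% in Jagged1/PyMT and 0.832% in PyMT of its free RNA level. For the macrophage gene C1qa, which the gate holds low in T cells, these shares were 1.59% and 1.95%. The part of free RNA in the T cell counts of Cxcl2 was not tested. The log2 ratio of Cxcr6 was 1.31 in CD8 cells and -0.95 in Foxp3 cells, a gap of 2.26. Foxp3 cells with the gene numbered 4 in Jagged1/PyMT and 7 in PyMT.

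In 4 cases free RNA, which no comparison used as a class, was higher in Jagged1/PyMT than in PyMT. The log2 ratio was 4.23 for Cxcl10 (2.98 to 5.87; 82.7 and 4.42 CPM), 2.64 for Cxcl14 (1.71 to 3.74; 55.0 and 8.84 CPM), 1.79 for Cxcl16 (1.48 to 2.12; 288 and 83.1 CPM) and 0.51 for Cxcl2 (0.42 to 0.60; 1737 and 1219 CPM). Free RNA of Cxcl1 ran the other way, at 132 CPM in Jagged1/PyMT and 305 CPM in PyMT.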

How the results depend on the processing

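No paired analysis was possible because the 2 samples of each genotype share 1 matrix, so no replicate could be blocked or left out either. Of 333 log2 ratios (28 member and class pairs under 12 settings), 261 stayed within counting error, 64 moved further, 8 changed sign from a value past 1.5-fold, and 3 more had no value for want of UMIs. A further 36 changed sign from a value under 1.5-fold, and they are counted with the first 2 groups. For the 8 and the counts below the cause was not tested. Averaging over cells gave -1.47 and thinning -0.53 for Cxcl9 in macrophages. Keeping barcodes of 2 lineages gave -0.23 and clusters -2.01 for Cxcr3 in macrophages. Clusters gave -0.069 for Cxcl16 and -0.64 for Cxcl1 in monocytes, and -0.65 for Cxcl3 in mature dendritic cells, where a gate of 6 UMIs gave -0.99. In Trdc cells defined by at least 2 UMIs, Cxcr3 had no ratio, with 0 UMIs in Jagged1/PyMT and 6 in PyMT. Counts of members past 1.5-fold changed as follows. In macrophages thinning left 0 higher and 0 lower, and a mean over cells left 1 lower. In monocytes 4 were higher with barcodes of 2 lineages, with a mean over cells or without the top cell, 1 with Scrublet's top share removed and 0 by clusters, while 3 were lower by clusters and 1 with genes of at least 1 UMI per library. In mature dendritic cells 1 was higher and 1 lower under the gate of 6 UMIs and by clusters, and 5 were higher with genes of at least 1 UMI. With that last setting 1 was lower in neutrophils and 2 higher in B cells, where clusters or leaving out the top cell gave 1. In T cells 1 was lower after thinning. Across all settings Cxcr6 in T cells lay between 0.87 and 1.21, Cxcl10 in macrophages between 0.47 and 1.31, Cxcl2 in macrophages between -0.89 and -0.33, and Cxcr2 in neutrophils between -0.43 and 0.07. Leaving out the top cell and dropping the minimum share of a second lineage were chosen after seeing the data. Depth limits Cxcl9, Cxcr3 and all PyMT macrophage values, which rest on 176 cells.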
